A study of Callithrix jacchus with 71 samples.

Results

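Single cells of 1 clone of marmoset induced neural stem cell-like cells (iNSLCs), 65 in all, were placed in classes by the transcripts of cell division. The classes were chosen by how many of 9 genes of G2 and mitosis had a value above 0 in the cell: CCNB1, ECT2, BUB1, CENPF, AURKA, AURKB, IQGAP3, TOP2A and MKI67. Cells with 5 or more were called mitotic-positive (28 cells), cells with 2 or fewer were called mitotic-low (18 cells), and the 19 cells with 3 or 4 were called intermediate and left out of the comparison. The names state which transcripts were read in a cell and do not state its cell cycle phase.

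The iNSLCs are the cells that arise on the way from marmoset fibroblasts to induced pluripotent stem cells (iPSCs). Dorsal skin fibroblasts of an embryo (E01F) received the EP-A episomal plasmids, which carry OCT4, LIN28, L-MYC, KLF4 and SOX2 of human origin, EGFP and a dominant-negative mouse p53 named mp53DD, and domed colonies were grown in the medium NSM. All 65 iNSLCs are of the clone E01F A-2 at passage 1, so every class shares the donor, the plasmids and the medium. The whole series holds 71 single cells: beside the iNSLCs there are 1 fibroblast of E01F, 1 iPSC named E01F A-2-2 and 4 embryonic stem cells (ESCs) of line no. 40. How many cultures the iNSLCs came from is not stated, and they were treated as 1 culture, which is an assumption. No test between the classes was made on that basis, and the values below describe these cells.

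Genes of the cell cycle are switched on in waves. E2F factors drive DNA replication genes from late G1 into S phase, and the MuvB complex with MYBL2 and FOXM1 drives mitotic genes in G2 and M, after which the anaphase-promoting complex and transcript loss clear them. A dividing cell in G1 or early S phase therefore holds few mitotic transcripts, as does a cell that has left the cycle. In the embryonic neural tube, progenitors divide under Notch signalling and its HES targets, and the proneural factors, their Notch ligand DLL1 and the inhibitor CDKN1C (p57) mark cells that leave the cycle to become neurons.

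The data are RamDA-seq libraries of single sorted cells, in the authors' normalized counts, where each cell has its own factor and 1 read is worth 0.441 to 2.84 normalized counts. Mitotic-positive cells had 98507 to 695241 reads on genes (median 305660), intermediate cells 115236 to 549078 (median 258619) and mitotic-low cells 82268 to 495903 (median 219697). A deeper cell has more chances to show a read of a rule gene. The number of rule genes correlated with log2 reads at Pearson r = 0.323 and Spearman rho = 0.324 over the 65 cells, which share 1 clone. When 58 cells were thinned to 129629 reads each, 21 of 26 mitotic-positive cells deep enough were still mitotic-positive and 5 became intermediate. Of 18 intermediate cells deep enough, 2 became mitotic-low. Thinning only removes reads, so the 14 mitotic-low cells that were deep enough could not leave their class. The part of depth in the results below was not tested beyond the thinned values given beside them.

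**Figure D1:**
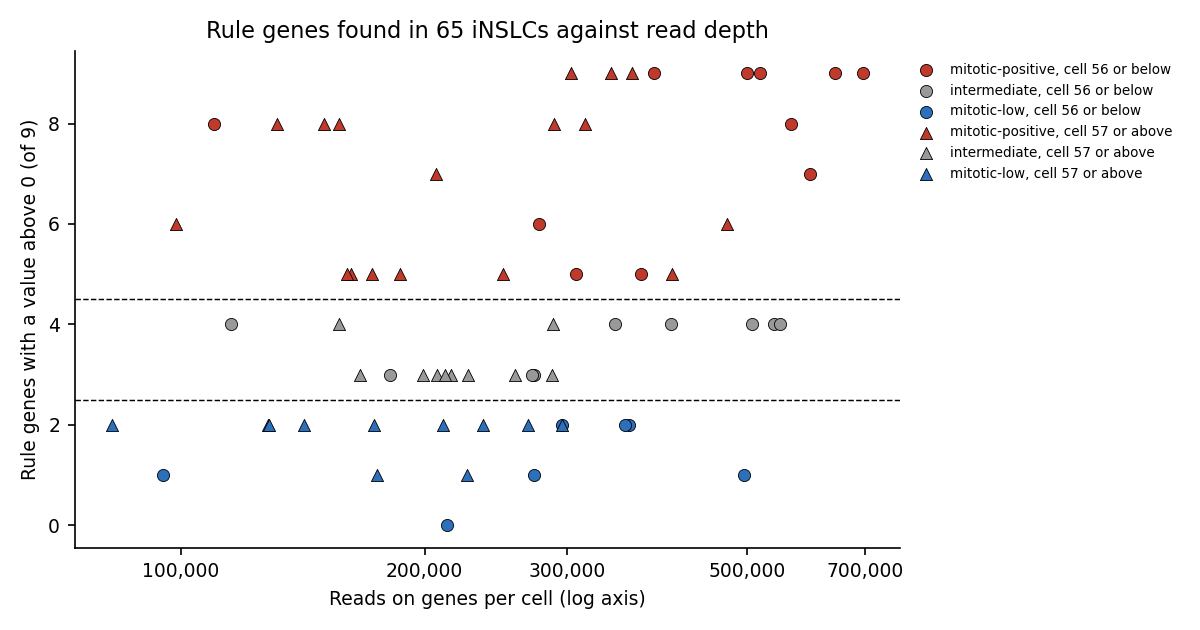
Number of rule genes with a value above 0 (vertical axis, of 9) against reads on genes (horizontal log axis) in 65 iNSLCs. Colour gives the class, circles are cells numbered 56 or below, triangles are cells numbered 57 or above, and dashed lines are the class limits. Mitotic-positive cells reach from 98507 to 695241 reads and mitotic-low cells from 82268 to 495903, so the classes overlap in depth.

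Mitotic-positive cells were 43.1% of the iNSLCs (28 of 65, exact Clopper-Pearson 95% interval 30.8% to 56.0%), and mitotic-low cells were 27.7% (18 of 65, 17.3% to 40.2%). Intervals of shares and of reads cover counting error only. The shares depend on the limit for a read: with at least 2 reads in place of 1, mitotic-positive cells were 33.8% and mitotic-low cells 36.9%, so the order of the classes by size turned. The labels number the cells, and those numbered 56 or below were set apart from those numbered 57 or above, since profiles differ between them; the labels do not say what a number stands for. Mitotic-positive cells were 11 of 27 in the lower numbers (40.7%) and 17 of 38 in the higher numbers (44.7%), and mitotic-low cells were 7 of 27 (25.9%) and 11 of 38 (28.9%). Each class was thus drawn from both sets of numbers. Median reads were 499940 in mitotic-positive and 295907 in mitotic-low cells of the lower numbers, and 206720 and 174494 in those of the higher numbers. Within the lower numbers, the number of rule genes correlated with log2 reads at r = 0.414 and rho = 0.552. Within the higher numbers, the values were 0.263 and 0.245.

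The rule genes set the classes, so their levels are given as a description. MKI67, the proliferation marker Ki-67, had 0 to 533 normalized counts in mitotic-positive cells (median 77.4) and 0 to 46.0 in mitotic-low cells (median 0), with reads in 25 of 28 and 3 of 18 cells. TOP2A, the topoisomerase that untangles sister chromatids, had 3.58 to 750 (median 32.6) and 0 to 52.8 (median 5.47), and it had reads in 13 of 18 mitotic-low cells. TOP2A was therefore the rule gene that the mitotic-low cells most often kept.

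CCNB1, the cyclin that opens mitosis with CDK1, averaged 27.6 ± 62.3 normalized counts (SD, n = 28) in mitotic-positive cells and 0.199 ± 0.581 (n = 18) in mitotic-low cells. BUB1 and CENPF of the kinetochore and AURKB, the kinase of the chromosomal passenger complex, had no read in the 18 mitotic-low cells, which the choice of the cells favours. They had reads in 20, 21 and 17 of the 28 mitotic-positive cells. IQGAP3 averaged 37.6 ± 48.4 in mitotic-positive and 0.131 ± 0.558 in mitotic-low cells. CENPF and AURKB averaged 10.9 ± 20.1 and 31.8 ± 51.6 in mitotic-positive cells, and BUB1 reached 144 with a median of 6.42, so the spread within that class was wide.

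Near the limits, the 8 cells with exactly 5 rule genes had summed rule gene counts of 26.3 to 142 (median 49.7), and the 8 cells with 4 had 21.5 to 138 (median 35.4). The 11 cells with 3 had 4.86 to 61.1 (median 10.7), and the 12 cells with 2 had 4.56 to 56.4 (median 10.8). The classes meet without a gap at either limit.

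Of 6733 genes other than the 9, with a mean of at least 10 in either class, 358 were at least 2-fold higher in mitotic-positive cells (5.32%) and 194 were at least 2-fold lower (2.88%), on the log2(value + 1) scale. The median gene compared had a log2 ratio of 0.08. In cells numbered 56 or below, 759 of 6968 genes were higher (10.9%) and 567 were lower (8.14%). In cells numbered 57 or above, 450 of 6624 were higher (6.79%) and 220 were lower (3.32%). Smaller classes give noisier means, so the genes described are mainly those past the fold in all cells and in both sets of numbers: 166 of 5812 were higher (2.86%) and 47 were lower (0.809%). Of the higher genes, 159 had a symbol that does not begin with LOC. Among them, 71 were in the lists of mitosis, mitotic chromatin, cell cycle transcription factors, DNA replication or repair. Those lists held 54, 14, 6, 32 and 10 of the 6733 genes compared, in that order. None of the genes lower in all cells was in them. The 5 histone genes with a row were not part of that tally. Of the 3 with a mean of at least 10, 1 was higher and 1 lower in all cells, and 0 were past the fold in both sets of numbers.

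**Figure D2:**
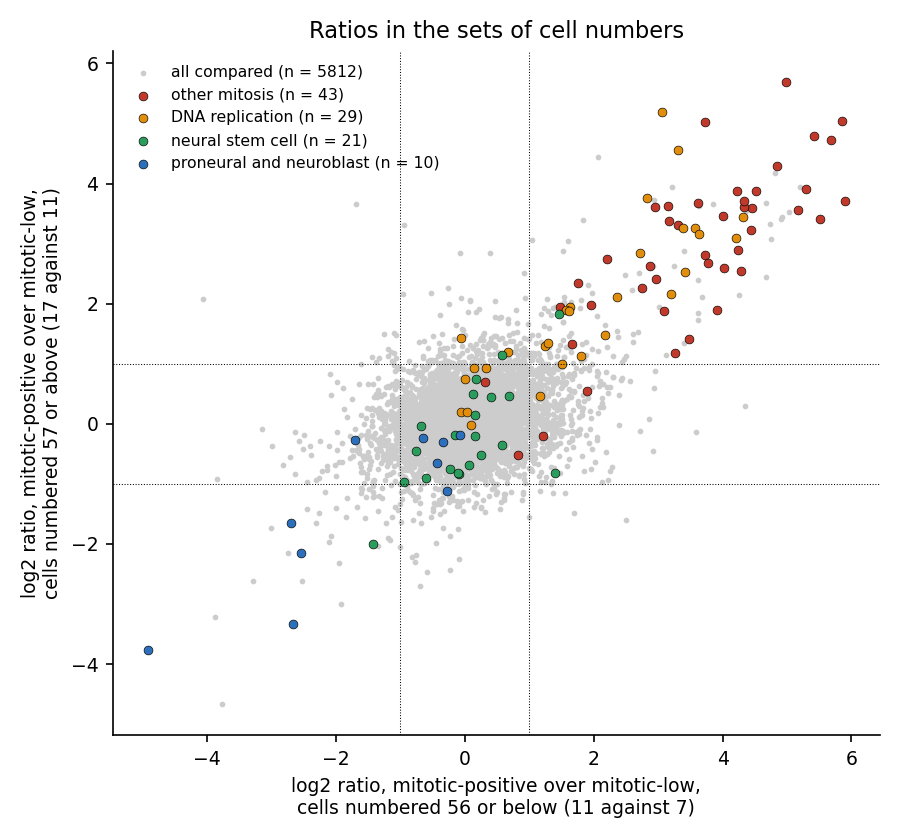
Log2 ratio of mitotic-positive over mitotic-low cells for 5812 genes, in cells numbered 56 or below (horizontal axis, 11 against 7 cells) and 57 or above (vertical axis, 17 against 11 cells). Grey points are all genes compared, coloured points are members of 4 lists, and dotted lines mark a 2-fold difference. Mitosis and DNA replication genes fill the upper right, and INSM1, the lowest proneural gene, lies at -4.92 and -3.77.

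Most mitosis genes outside the rule that reached the mean limit were higher in mitotic-positive cells. They were taken from 4 lists (cyclins, kinases and the anaphase-promoting complex; kinetochore and checkpoint; spindle and kinesins; cytokinesis) with 91 genes that have a row. The median log2 ratio was 2.59 against 0.08 for all genes compared. Of the members, 90 of 91 had a ratio above 0, the exception being BUB3 at -0.08, against 56.4% of all genes compared. These list values take in members under the mean limit, while the values for all genes compared do not. The same holds for the medians of the lists below. Of the 54 members at the mean limit, 50 were at least 2-fold higher and 0 were lower, against 5.32% and 2.88% of all genes compared. In both sets of numbers, 39 of them were higher. A gene can reach that limit through the mitotic-positive cells alone. This favours high counts for genes read mainly there, here and in the lists below. The medians were 2.95 in cells numbered 56 or below and 2.20 in cells numbered 57 or above.

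CDC20, the activator that turns the anaphase-promoting complex on at metaphase, had the largest ratio on the log2(value + 1) scale in all cells, an order that depends on the pseudocount and on genes with few reads. Its level was 0 to 1448 normalized counts in mitotic-positive cells (median 45.1) and a median of 0 in mitotic-low cells, of which 5 had a read, and the log2 ratio was 5.52. In all, 19 of 28 mitotic-positive cells lay above the highest mitotic-low cell. CCNF (cyclin F) had a ratio of 4.05 and CCNB2 (cyclin B2) one of 3.45. FZR1, the activator of the same complex in G1, had 60.8 ± 56.8 in mitotic-positive and 55.4 ± 39.6 in mitotic-low cells and a ratio of 0.13.

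Among kinetochore and checkpoint genes, 12 of the 13 at the mean limit were higher. ESPL1 encodes separase, the protease that cuts cohesin at anaphase, and it had 0 to 229 normalized counts in mitotic-positive cells (median 19.2, reads in 21 of 28) and no read in the mitotic-low cells. Against a floor of 3 reads over that class its mean was at least 165-fold higher. BIRC5 (survivin) had 58.8 ± 49.1 against 1.94 ± 5.23 and a log2 ratio of 4.34. Its partners in the chromosomal passenger complex, CDCA8 (borealin) and INCENP, had ratios of 4.55 and 2.52, although CDCA8 rested on 1 read in the mitotic-low cells (Poisson 95% interval 0.0253 to 5.57 reads).

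Spindle and kinesin genes had the highest list median, 2.95, with 19 of 20 at the mean limit higher. KIF18B, a kinesin that trims microtubule ends, averaged 40.2 ± 59.3 against 0.148 ± 0.476, and its log2 ratio of 5.17 rests on 2 reads in the mitotic-low cells (0.242 to 7.22). TACC3, which binds kinetochore microtubules, had 163 ± 199 against 15.6 ± 20.8 and a ratio of 3.30. The ratios of SPAG5 and GTSE1, a spindle protein and a G2 protein, were 4.17 and 4.15. NUMA1, which anchors spindle poles and also lines the interphase nucleus, had 138 ± 83.8 against 92.1 ± 52.1 and stayed under the fold at 0.58. For cytokinesis genes, 10 of 10 at the mean limit were higher, led by citron kinase (CIT, 63.7 ± 74.4 with 11 reads in the mitotic-low cells, ratio 5.01) and KIF14 (ratio 4.75, 2 reads in the mitotic-low cells, 0.242 to 7.22).

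Chromosome structure genes were split. The condensin I subunits NCAPH, NCAPG and NCAPD2, which compact chromosomes for mitosis, had log2 ratios of 4.02, 3.11 and 2.85. LMNB1 (lamin B1) had a ratio of 1.48, LMNB2 (lamin B2) 0.75 and CBX5, a heterochromatin protein, 0.39. Over the list, 7 of 14 at the mean limit were higher and the median was 1.33.

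The transcription factors of these waves were split as well, with 3 of 6 at the mean limit higher and a median of 0.47. FOXM1 had 0 to 49.6 normalized counts in mitotic-positive cells (median 11.0, reads in 21 of 28) and no read in mitotic-low cells, so its mean was at least 54.8-fold higher. MYBL2 had 64.4 ± 51.7 against 12.0 ± 12.6 (ratio 2.32). E2F3, by contrast, had 25.3 ± 15.5 against 24.4 ± 16.7 (0.05).

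DNA replication genes, none of which was used to choose the cells, were also higher. The median log2 ratio of the 62 genes was 1.41 (1.56 and 1.38 in the sets of numbers), 59 had a ratio above 0, and 21 of the 32 at the mean limit were at least 2-fold higher with 0 lower. POLE, the catalytic subunit of the leading-strand polymerase, had 0 to 134 normalized counts (median 27.1) in mitotic-positive cells and 0 to 16.6 (median 0) in mitotic-low cells, and 18 of 28 mitotic-positive cells lay above every mitotic-low cell (log2 ratio 4.29). RRM2, the regulated subunit of ribonucleotide reductase, had 0 to 225 (median 70.0) against 0 to 33.4 (median 0) and a ratio of 4.18. MCM4 of the replicative helicase had a ratio of 3.73.

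Not every replication gene took part. TYMS, the thymidylate synthase, had 158 ± 112 against 94.5 ± 68.1 (0.74), and UHRF1, which keeps DNA methylation through replication, had 79.6 ± 36.6 against 55.8 ± 24.3 (0.51). RPA1, the large subunit of the single-strand binding complex, was at 60.2 ± 25.3 against 56.9 ± 32.5 (0.08). For repair genes of S and G2 phase, 8 of 10 at the mean limit were higher and 0 lower, with FANCD2 at 15.3 ± 16.7 against 0.234 ± 0.726 (ratio 3.73, 2 reads in the mitotic-low cells, 0.242 to 7.22).

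**Figure D3:**
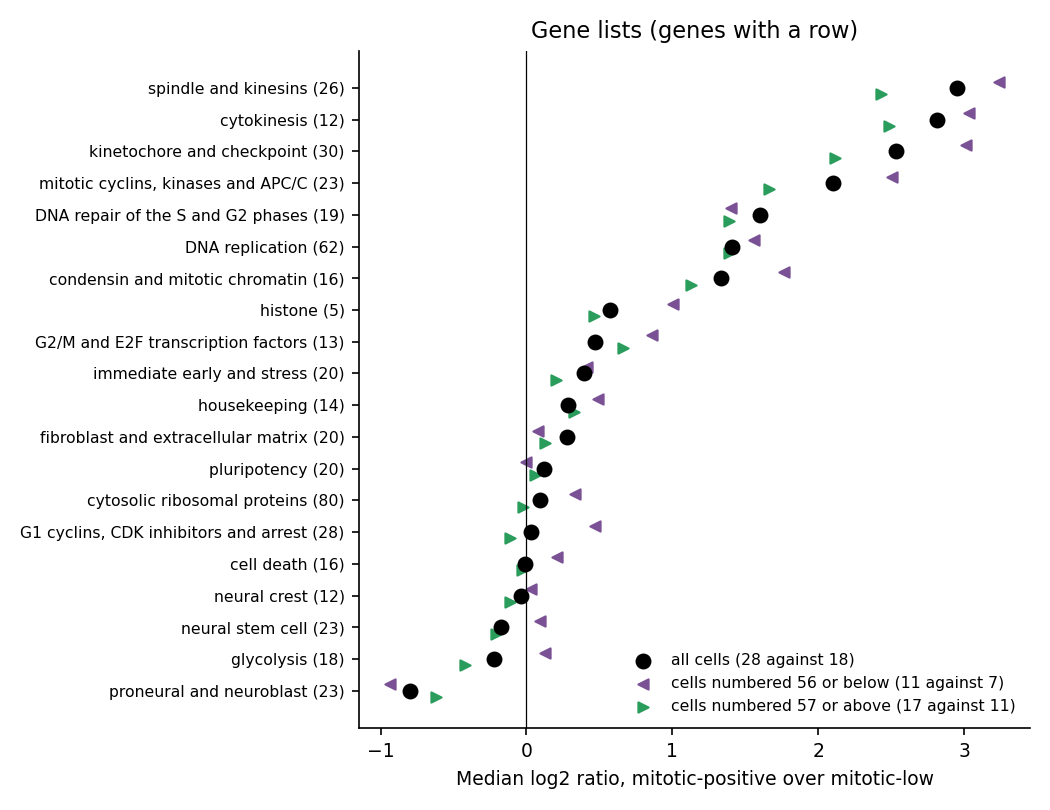
Median log2 ratio of mitotic-positive over mitotic-low cells for each gene list (number of genes with a row in brackets). Black circles are all cells, triangles the sets of cell numbers. The mitosis lists lie from 2.10 to 2.95, DNA replication at 1.41, ribosomal proteins at 0.09, and proneural and neuroblast genes at -0.80.

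Summed over the lists, each cell can be placed on both axes. The other mitosis genes summed to 244 to 10953 normalized counts in mitotic-positive cells (median 1316), 261 to 1082 in intermediate cells (median 376) and 193 to 537 in mitotic-low cells (median 388). The DNA replication genes summed to 490 to 2449 (median 1229), 306 to 1619 (median 557) and 360 to 695 (median 496). Above the highest mitotic-low cell lay 23 of 28 mitotic-positive cells by mitosis genes and 25 of 28 by replication genes, while 3 and 8 of 18 mitotic-low cells lay below the lowest mitotic-positive cell. Log2 sums of the lists correlated at r = 0.737 and rho = 0.680 over 65 cells, and at 0.541 and 0.607 within the 28 mitotic-positive cells, and both sums of a cell share its depth and its factor.

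The mitotic-positive cells were not alike. Cells 47, 86 and 41 had the highest mitosis sums (10953, 6829 and 6307), with CDC20 at 1448, 608 and 1013 normalized counts, PLK1, a kinase that drives mitotic entry, at 309, 174 and 150, and TUBB4B, a tubulin, at 773, 503 and 285. Their replication sums were mid-range (1178, 1381 and 1081), and their MCM4 was 0, 2.69 and 5.29. At the other side, cell 84 had the highest replication sum (2449) with MCM4 at 85.1, POLE at 134 and CDC20 at 28.4, and no CCNB1 read. Cell 28 reached the class with a mitosis sum of 244, inside the range of the mitotic-low cells. Leaving out cells 47, 86 and 41 lowered the median of the other mitosis genes from 2.59 to 2.04 and left 320 genes higher and 205 lower.

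**Figure D4:**
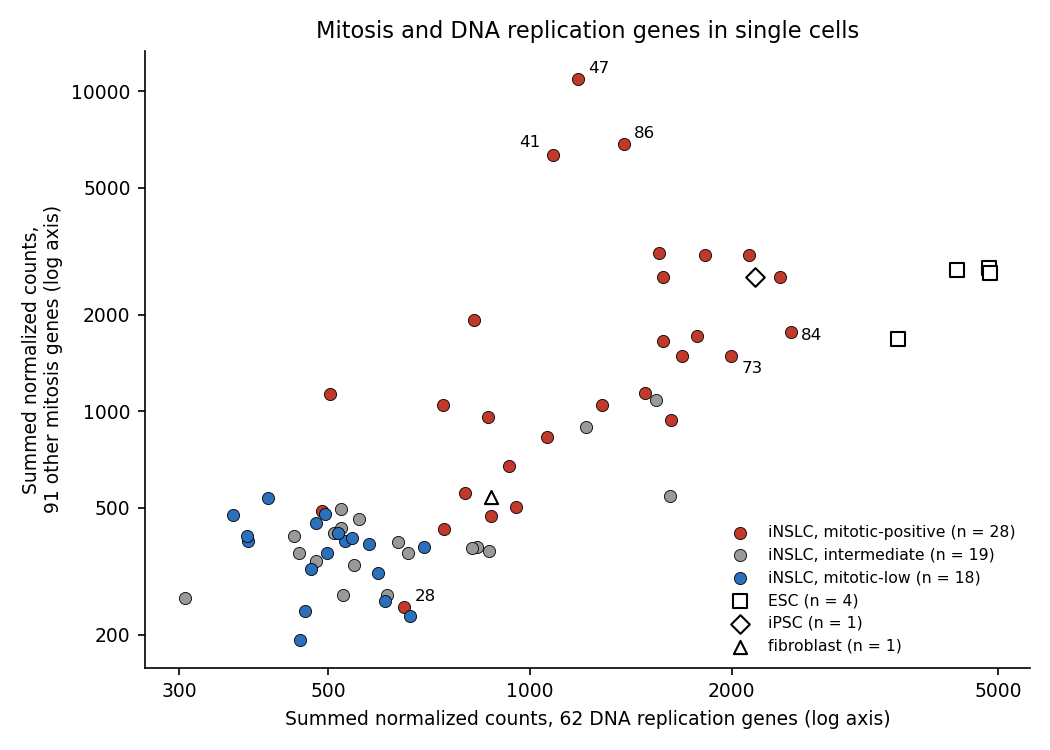
Summed normalized counts of 91 other mitosis genes (vertical log axis) against 62 DNA replication genes (horizontal log axis) in single cells, coloured by class, with the ESCs, the iPSC and the fibroblast as open symbols. The 18 mitotic-low cells sit in the lower left, cells 47, 86 and 41 at the top, and the ESCs at the right.

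The intermediate cells, which had no part in the ratios, overlapped both classes. Of the 19, 3 lay above the highest mitotic-low cell by summed mitosis genes and 6 by summed replication genes. A median of 34 of 91 other mitosis genes had a read in them, against 68.5 in mitotic-positive and 26 in mitotic-low cells. CDC20 averaged 9.98 in intermediate cells, between 183 and 3.02, and POLE averaged 13.7, between 43.5 and 1.28. In the pluripotent cells the other mitosis genes summed to 1683 to 2802 in the 4 ESCs and 2637 in the iPSC, within the range of the mitotic-positive iNSLCs. Their replication genes summed to 3549 to 4853 in the ESCs, above every iNSLC, and 2168 in the iPSC. The fibroblast had 539 and 875. Its mitosis sum was close to that of the highest mitotic-low cell (537), and its replication sum was above the highest of that class (695). It had reads for 7 rule genes, enough for the mitotic-positive limit. Its 1294430 reads and its normalized total of 523792 were above those of every iNSLC (at most 695241 and 386818). It was not thinned, so its number of rule genes was not compared at equal depth.

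On the other side of the comparison, genes lower in all cells and in both sets of numbers were ranked, leaving out LOC symbols. Among these, the 10 with the lowest ratios were DRD2, INSM1, ADM, GADD45G, CELF3, CDKN1C, DCX, SCUBE1, SPON1 and NCAN. Several belong to neurons or to cells about to become them. Among 23 proneural and neuroblast genes, 0 had a ratio above 0 and the median was -0.80. At least 2-fold lower in mitotic-positive cells were 5 of the 13 at the mean limit, against 2.88% of all genes compared. Of those, 4 were lower in both sets of numbers: INSM1, GADD45G, DCX and DLL1. The Notch ligand DLL3 was at -2.83 in all cells and at -0.59 in cells numbered 57 or above.

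INSM1, a zinc finger factor of newborn neurons and basal progenitors, had no read in the 28 mitotic-positive cells. It was read in 4 of 18 mitotic-low cells, with 18.3 normalized counts for cell 25, 187 for cell 27, 29.8 for cell 57 and 109 for cell 81, and it was read in 1 intermediate cell. Its mean over mitotic-low cells was at least 144-fold that in mitotic-positive cells, against a floor of 3 reads. DRD2, a dopamine receptor, also had reads in 4 mitotic-low cells and in no mitotic-positive cell, and 269 of its counts were in cell 81 alone.

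CDKN1C was read in 18 of 18 mitotic-low, 18 of 19 intermediate and 27 of 28 mitotic-positive cells, so its level and not its detection differed. It had 0 to 147 normalized counts in mitotic-positive cells (median 20.4), a mean of 68.8 in intermediate cells and 14.3 to 688 in mitotic-low cells (median 80.5), with a log2 ratio of -2.58. In all, 7 of 18 mitotic-low cells lay above every mitotic-positive cell. DCX, the doublecortin of migrating neuroblasts, had 0 to 42.5 (median 7.36) in mitotic-positive and 0 to 349 (median 30.9) in mitotic-low cells (ratio -2.36), and GADD45G, a target of proneural factors, had 0 to 7.27 against 0 to 96.4 (ratio -3.09).

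These genes met in the same few cells. Cells 25, 27, 57 and 81, the mitotic-low cells with INSM1 reads, had CDKN1C at 688, 289, 475 and 556 normalized counts, and these were the 4 highest values of the class. Their summed proneural and neuroblast genes were 2936, 1370, 2665 and 1766, while the highest mitotic-positive cell had 640 and the other mitotic-low cells 275 to 816. The highest intermediate cell, cell 40, had 995, with INSM1 at 85.7, DCX at 106 and CDKN1C at 165, so the profile was not confined to mitotic-low cells. DLL1 reached 645 and 1088 in cells 25 and 57, but 34.8 and 47.8 in cells 27 and 81. SOX2, a progenitor factor, was still read in all 4 mitotic-low cells with INSM1, at 102 to 146. Whether SOX2 reads come from the plasmids, here and below, was not tested.

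Without those 4 cells, chosen after their values were seen, the median of the proneural list moved from -0.80 to -0.11 and DLL1 from -1.92 to -0.11. INSM1 has no read in either class then. CDKN1C stayed past the fold at -1.45 with 14 mitotic-low cells, as did DCX at -1.21, GADD45G at -1.90 and CELF3, an RNA-binding protein of neurons, at -1.86. Medians over cells in place of means gave a proneural median of 0. The list's difference was carried by 4 of 18 cells, and that of CDKN1C was not carried by them alone.

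HES5, a Notch target of neural progenitors, was higher in mitotic-low cells as well. It had 0 to 48.0 normalized counts in mitotic-positive cells (median 7.82) and 0 to 162 in mitotic-low cells (median 18.2), with a log2 ratio of -1.91. Cells 59, 60, 66, 67 and 74 held 100 to 162, and their CDKN1C was 15.7 to 71.5. The 4 cells with INSM1 had no HES5 read (3 cells) or 2.5 normalized counts of it (cell 25), and those 3 were the only mitotic-low cells without a HES5 read. Low HES5 was not particular to them: cells 30, 36 and 69, without INSM1, had 1.15 to 5.67, and HES5 had no read in 7 mitotic-positive and 8 intermediate cells, none of them with INSM1. The intermediate cell with INSM1 had HES5 at 4.51.

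**Figure D5:**
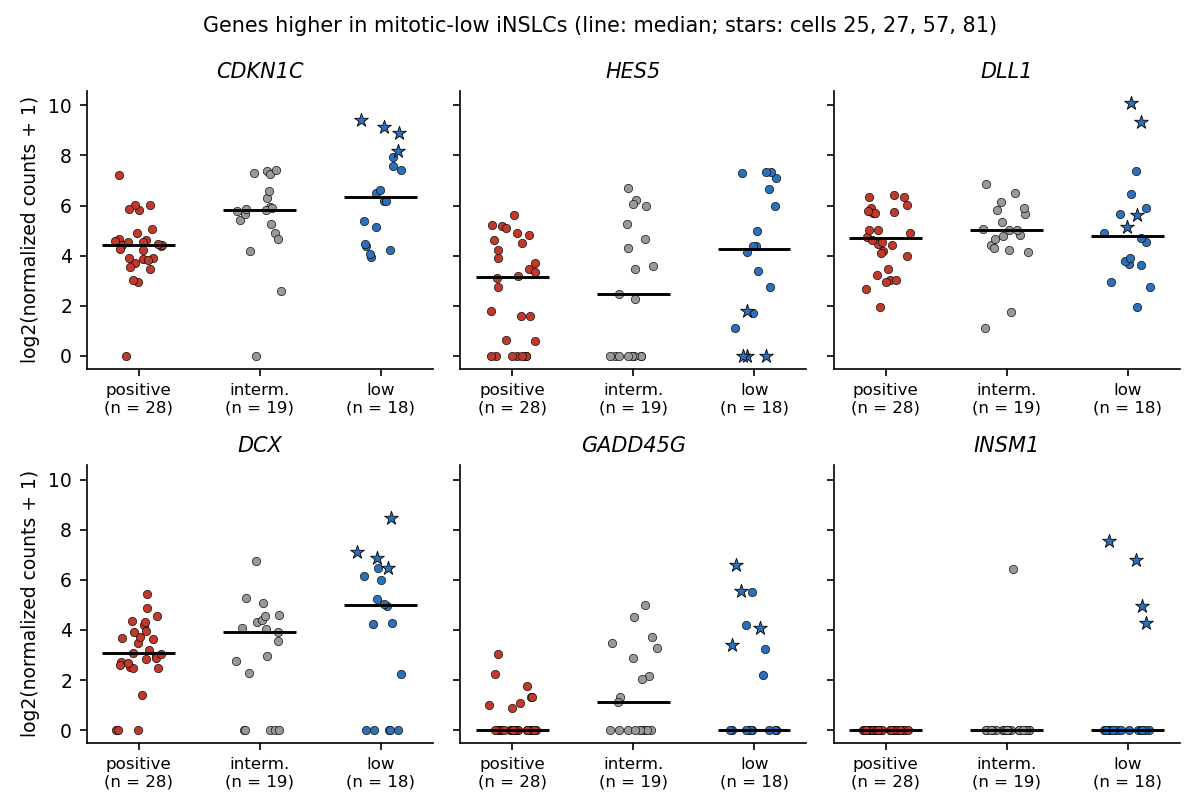
Log2(normalized counts + 1) of CDKN1C, HES5, DLL1, DCX, GADD45G and INSM1 in single iNSLCs by class, with lines at the medians. Stars are mitotic-low cells 25, 27, 57 and 81, which hold the highest CDKN1C (289 to 688) and HES5 at or near 0.

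Most other genes of the list of G1 cyclins, CDK inhibitors and arrest genes at the mean limit stayed within 2-fold. Of 25 G1 cyclin, CDK inhibitor and arrest genes at the mean limit, 1 was higher (the D cyclin CCND3 at 1.21), 2 were lower (CDKN1C, and cyclin G2, CCNG2, at -1.02), and the median was 0.03. Over all genes compared, 5.32% were higher and 2.88% lower, and these list counts are too small to set apart from those shares. CCND2, also a D cyclin, had 276 ± 162 normalized counts in mitotic-positive and 385 ± 232 in mitotic-low cells (-0.48), and TXNIP, a brake on glucose uptake, 529 ± 388 and 607 ± 446 (-0.20). Housekeeping genes had 0 of 11 and ribosomal protein genes 0 of 74 past the fold, with medians of 0.29 and 0.09.

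Neural stem cell genes were near equal, with 1 of 22 at the mean limit higher, 1 lower and a median of -0.18. The shares over all genes compared were 5.32% higher and 2.88% lower. The ratios were -0.33 for VIM (vimentin), 0.15 for NES (nestin) and -0.18 for SOX2. All 6 iNSLC markers (SOX2, PAX6, MSI1, NES, VIM and CDH2) had reads in every mitotic-low cell, and 5 or 6 of them in every mitotic-positive cell, so both classes carried the markers of their label. The exception on the higher side was ZIC1, a zinc finger factor of the dorsal neural tube, at 0 to 331 (median 81.2) against 0 to 147 (median 2.67), a ratio of 1.76. COL2A1, a collagen (131 ± 140 against 26.5 ± 44.4, 2.26), and CCK, a neuropeptide (46.4 ± 107 against 2.96 ± 9.88, 3.58), were noticed after their values were seen and were also higher in both sets of numbers.

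A few genes of glycolysis and stress were past the fold, as were 5.32% (higher) and 2.88% (lower) of all genes compared. Counts this small in short lists cannot be set apart from those shares. HK2, the hexokinase that hypoxia induces, had 0 to 248 (median 62.3) in mitotic-positive and 33.4 to 960 (median 138) in mitotic-low cells, with a ratio of -1.63. Outside these lists, ADM (adrenomedullin), a vasodilator peptide, was at -3.59, but 216 and 106 normalized counts of it lay in cells 36 and 60. Over the glycolysis list, 2 of 18 were lower, 0 were higher and the median was -0.22. That median was 0.13 in cells numbered 56 or below and -0.42 in those numbered 57 or above, and 1 gene, HK2, was lower in both sets. GAPDH was at -0.16. Of the immediate early and stress genes, EGR1 was higher (49.7 ± 86.3 against 10.6 ± 18.1, ratio 2.13) and 2 of 12 were lower, among them HSPA5, a chaperone of the endoplasmic reticulum, whose ratio of -1.59 was -0.10 in cells numbered 56 or below.

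Of the markers of other cell types, those of pluripotent cells were near 0 in both classes, while fibroblast markers varied widely between cells. The 6 pluripotency markers (NANOG, TDGF1, UTF1, EPCAM, CDH1 and ZFP42) summed to at most 6.01 normalized counts in mitotic-positive and 12.5 in mitotic-low cells, with TDGF1, UTF1 and CDH1 at 0 in all. The 7 fibroblast markers (COL1A1, COL1A2, COL3A1, LUM, DCN, POSTN and THY1) summed to 1.01 to 817 (median 40.8) and 0 to 330 (median 16.6), and POSTN was at 0 in both. In the fibroblast cell these markers summed to 26512. The neuroblast markers, which share members with the proneural list, summed to 0 to 103 (median 14.2) and 0 to 395 (median 45.4). COL1A2 itself had 110 ± 181 against 60.9 ± 99.1 (0.85). NEUROG2 was at 2.15 ± 3.90 and 3.85 ± 10.1 (-0.62, and 1.33 without the 4 cells with INSM1), CRABP1, a retinoic acid binding protein, at 76.8 ± 150 and 303 ± 482 (-1.97, with -3.84 and -0.93 in the sets of numbers), and HOXA9 at 4.79 ± 8.76 and 3.54 ± 6.09 (0.35, with -1.31 and 1.37 in the sets). POU5F1 had 13.6 ± 28.7 and 5.07 ± 13.3, with ratios of -0.94 and 3.32 in the sets, and whether its reads come from the plasmids was not tested.

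As a check on depth, thinning the cells to 129629 reads and setting the classes again gave 435 genes higher and 255 lower, with 36.2% of the cells mitotic-positive and 27.6% mitotic-low. With the classes kept as they were, 385 genes were higher and 261 lower. With the classes kept, the thinned log2 ratios were 5.06 for CDC20, 5.28 for POLE, -2.39 for CDKN1C and -2.19 for HES5. A median of 10600 genes had a read in thinned mitotic-positive cells and 9444.5 in thinned mitotic-low cells, with the classes still those set before thinning.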

How the data were processed

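RamDA-seq of single sorted marmoset cells was taken from the 1 table the authors deposited. Its signal values are counts that the authors normalized with 1 factor per cell, and its name points to the package TCC. Tools listed by the submitters' processing notes, with no role, are Seurat 3.0.0, featureCounts 1.5.1, STAR 2.6.0c and Trimmomatic. Build, annotation and strand setting: not given in the sources used here, so overlapping and antisense genes are uncertain. Every value was a whole multiple of 1 read (100% of values within 0.02 of a whole number), which gave reads per cell.

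Ratios are log2 of class means after adding 1, and a gene was compared if its mean reached 10 in the higher class. Genes past 2-fold are counted, without a test, since the cells were assumed to be of 1 culture (the sources state no number). Cells were thinned by drawing reads without replacement. Steps were tested on simulated data with Python 3.11.15, numpy 2.4.6, pandas 2.3.3 and scipy 1.17.1, and plots were drawn with matplotlib 3.10.9.

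The members and the 19 gene lists (414 genes, 11 without a row), with histone and ribosomal protein genes taken by symbol, were chosen with earlier results of these data known. Genes were named by a rule: the 9 rule genes, the 10 largest ratios in each direction among genes past the fold in all cells and both sets of numbers, the 4 highest members and up to 3 largest ratios in each direction of each list, cell type markers and 6 further genes. Outside it are PLK1, TUBB4B, COL2A1, CCK, EGLN3, CCND3, CCNG2, DLL3 and BUB3, picked once their values had been seen. Among the 12 alternatives set at the start and 5 added after the data were seen are other limits for the classes, a pseudocount of 10, thinning and the sets of cell numbers. The row without a gene name held at most 0.0137% of an iNSLC's total and was left out.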

Additional observations from a re-analysis of the deposited data

Results flagged for a closer look

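Among the 4 ESCs, 4 measures (the number of rule genes read, and the sums of the rule genes, the other mitosis genes and the DNA replication genes) were examined for a cell far from the rest. ESC cell 11 had 6 of the 9 rule genes with a value above 0, against 9 of 9 in each of the other 3 ESCs. It had 134328 reads, against 464547 to 1003718 in the others. ESC cell 12 had a summed level of the other mitosis genes of 1683 normalized counts, below the 2708 to 2802 of the others. The limit used flags about 1 in 20 groups by chance for 1 measure with a normal spread. Here 4 related measures were examined. With 3 cells tied at 9 rule genes, any lower number in the other cell is flagged. That rate therefore does not hold for these flags.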

How the results depend on the processing

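Of 72 named genes past the 2-fold limit, 60 to 72 were still past it under each of 17 alternatives (5 added after the data were seen). Alternatives that change only the mean limit cannot alter a ratio, so 72 was fixed for them. Many of the genes were named for passing in both sets of numbers, which largely fixes the counts within the sets. The sign changed for 3 ratios: DLL1 with classes of 6 or more against 1 or fewer rule genes (0.33), EGLN3, an oxygen sensor, with medians over cells (0.22), and POU5F1 in cells numbered 56 or below (-0.94). A pseudocount of 10 gave 129 genes higher and 60 lower, 81 and 19 in both sets of numbers, and medians of 0.92 for other mitosis and 0.52 for DNA replication genes. A rule gene limit of 2 reads gave shares of 33.8% and 36.9%. A mean limit of 1 gave 1010 and 599, and 490 and 148 in both sets. The limits 6 and 1 gave shares of 30.8% and 9.23% and counts of 948, 490, 368 and 90 in the same order, and the limits 4 and 3 gave a mitotic-low share of 44.6% and counts of 176, 102, 101 and 26. Medians over cells gave 680 higher, 261 in both sets, and a proneural median of 0. Without the highest cell of each class per gene, 250 genes were higher and 29 lower in both sets. Cells numbered 56 or below gave 759 and 567 and a G1 and arrest median of 0.47. A mean of 10 over all iNSLCs gave 239 higher and 119 lower, and 132 and 41 in both sets. Without the mitotic-low cells with INSM1 the proneural median was -0.11. The cause of these shifts was not tested. No paired analysis was possible because the result comes from no test. The value of 1 read, 0.441 to 2.84 normalized counts, limits ratios of genes with few reads in mitotic-low cells.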
